A study of Nematostella vectensis with 33 samples.

Results

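The transcript response of sea anemone polyps to a pair of cyclic dinucleotides, 3'3'-cGAMP and c-di-GMP, was described in the starlet sea anemone Nematostella vectensis. The libraries were chosen by their labels: 2 of polyps given 3'3'-cGAMP, 2 of polyps given c-di-GMP and 2 of untreated polyps, which is 6 of the 33 libraries of the series. Each compound on its own and both pooled were compared with the untreated polyps, and the compounds were compared with each other. Treated polyps received 500 µM of the compound for 24 h and were profiled as whole animals, and the labels give no strain, age or genotype for any polyp group. For reference, 2 libraries each of polyps given c-di-AMP or 2'3'-cGAMP at the same dose and time were used. Embryos that had been injected with a short hairpin RNA (shRNA) against GFP, a control hairpin, were used as an outside look, in 2 libraries left untreated and 2 given 2'3'-cGAMP at 100 µM for 4 h. The labels do not say whether the 2 libraries of a group came from separate animals, so a p-value here reflects the spread among these libraries alone, which may be technical.

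Cyclic dinucleotides are second messengers made of a pair of nucleotides joined in a ring by phosphodiester linkages. Bacteria make c-di-GMP, c-di-AMP and 3'3'-cGAMP, in which both linkages run from the 3' to the 5' position, whereas the animal enzyme cGAS makes 2'3'-cGAMP, in which a linkage runs from the 2' position instead. The animal receptor STING binds these molecules and, in vertebrates, switches on interferon and NF-kB signalling. 3'3'-cGAMP carries an adenine and a guanine, so it differs from c-di-GMP by a single base, from c-di-AMP by the other base, and from 2'3'-cGAMP in the position of a linkage. The 4 compounds therefore allowed responses to be set side by side across changes of base and of linkage.

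Values are the authors' deposited normalised counts, and differences are given as log2(value + 1). A gene was called when its adjusted p from limma, with Benjamini-Hochberg adjustment over the 18511 tested genes, was below 0.05. The untreated, 3'3'-cGAMP and c-di-GMP libraries held an estimated 10.8 to 17.4 M (mega) reads each. With 2 libraries against 2, a two-sided exact permutation test of a single gene cannot go below p = 0.333, so the calls rest on the spread shared across genes. In whole animals, fewer cells of a type and less RNA per cell cannot be told apart. The reference names all genes with placeholder symbols, so the 22 lists of pathways and cell-type markers matched 0 genes and no gene roles are given. Genes are named by their symbol or, where the reference has no entry, as Gene with their NCBI Gene identifier.

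The 3'3'-cGAMP libraries differed from each other more than those of most other groups. The SD of the log2 difference between them, over 12238 genes whose mean reached 50, was 0.510, against 0.427 between the untreated libraries, 0.389 between the c-di-AMP libraries, 0.355 between the c-di-GMP libraries and a larger 0.568 between the 2'3'-cGAMP libraries. Library 2 lay closer to untreated library 1 (0.381) than to its own replicate, and library 1 lay closest to c-di-GMP library 1 (0.346). Between the 3'3'-cGAMP libraries, 494 genes were at least 2-fold higher in library 2 and 99 were at least 2-fold higher in library 1. For 2'3'-cGAMP these counts were 362 and 310. In the other groups, whose differences did not choose them, those 494 genes were lower with c-di-GMP than untreated in 471 cases (95.3%), with a median log2 difference of 0.92 between untreated and c-di-GMP polyps and of 0.98 between untreated and c-di-AMP polyps. Over the 12238 genes the share was 49% and the same medians were -0.007 and -0.034. Of the 99 genes higher in library 1, 34.3% were lower with c-di-GMP than untreated, with medians of -0.235 and -0.35. For most genes of these lists 3'3'-cGAMP library 2 was thus on the side of the untreated polyps and library 1 on the side of the treated ones. Library 1 was also the deepest (17.4 M estimated reads, with 3.8% of genes listed at 0) and library 2 had 11 M reads with 5.8% of genes at 0. The part of depth in the difference was not tested, and the calls with 3'3'-cGAMP are given below with and without each of its libraries.

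**Figure D1:**
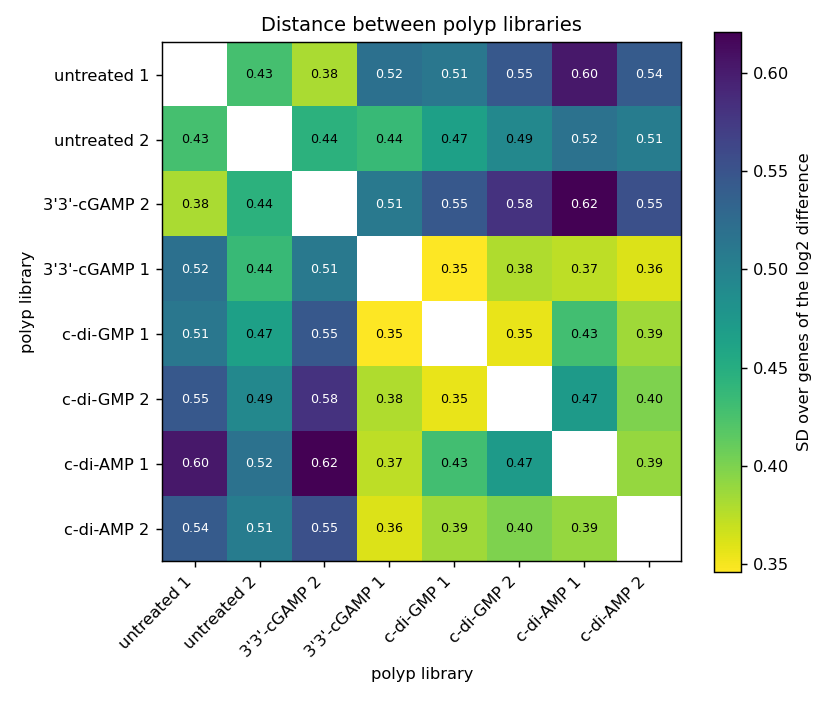
Distance between polyp libraries, as the SD over 12238 genes of the log2 difference between the libraries of each row and column (darker is farther apart); the 2'3'-cGAMP libraries, which lie far from all others, are left out. The square for 3'3'-cGAMP library 2 and untreated library 1 reads 0.38, below the 0.51 between the 3'3'-cGAMP libraries.

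With 3'3'-cGAMP, 10 genes rose and 0 fell against untreated polyps (0.054% of the tested genes). All 10 are protein-coding in the reference. LOC5516250 stood at 876.6 and 974.9 normalised counts without treatment and at 3263 and 2918 under 3'3'-cGAMP. The lower 3'3'-cGAMP value lay well above the higher untreated one, and the log2 difference was 1.74 ± 0.12 (SE, adjusted p = 0.000756 by limma, n = 2 each). LOC5517508 rose by the largest log2 difference, 1.81 ± 0.21 (adjusted p = 0.0212 by limma), from 40.8 and 37.2 to 136 and 142. LOC5516210 rose by 1.67 ± 0.18 (adjusted p = 0.0204 by limma), from 349 and 253 to 933 and 966. The 2 libraries of 3'3'-cGAMP gave similar values for each of these 3 genes.

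The other 7 called genes rose by log2 differences from 0.85 to 1.40. LOC116602986 went from 96.0 and 92.0 to 203 and 309, and LOC5519349 from 407 and 466 to 1279 and 933. In both of these the 3'3'-cGAMP libraries differed from each other by more than the untreated ones did. LOC5515274 went from 83.2 and 78.9 to 166 and 207, LOC116602118 from 120.5 and 105 to 266 and 240, and LOC5500942 from 288 and 230 to 530 and 607. LOC5518230 went from 181 and 222 to 450 and 446, and LOC5518586 from 464 and 468 to 918 and 767. No value of an untreated library reached a value of a 3'3'-cGAMP library in any of the 10, which was true of 3242 of all tested genes (17.5%) and is no result about the 10.

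**Figure D2:**
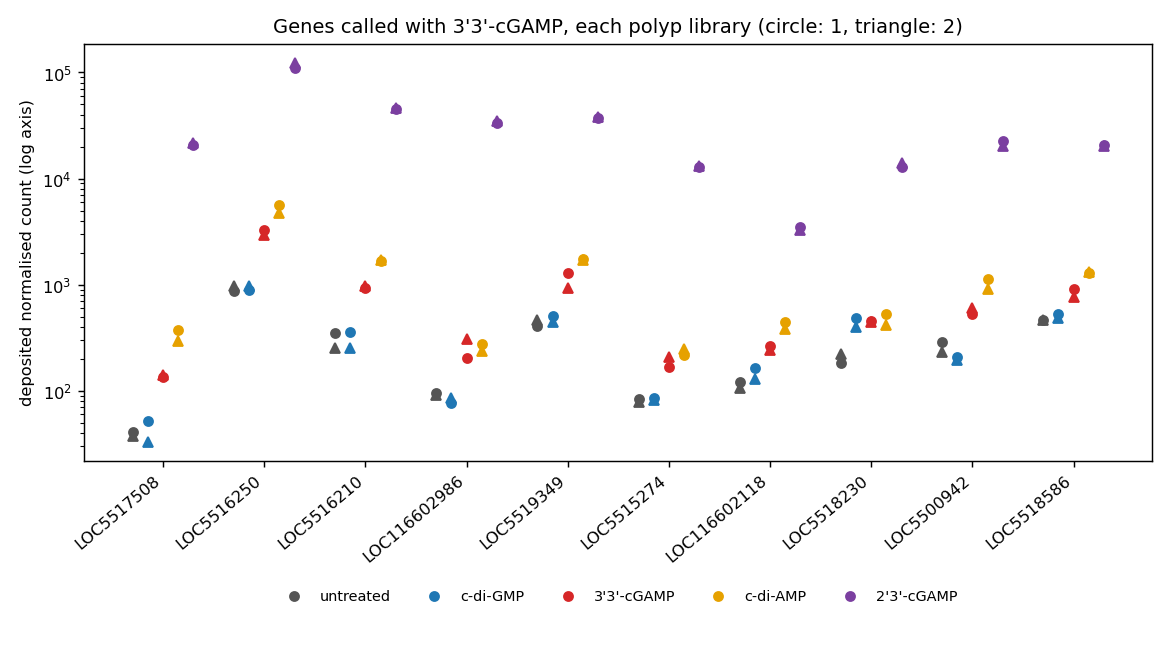
Deposited normalised counts (log axis) of the 10 genes called with 3'3'-cGAMP in each polyp library, with a circle for library 1 and a triangle for library 2. For LOC5516250 the 3'3'-cGAMP points sit at 3263 and 2918, above the untreated and c-di-GMP points, which lie between 876.6 and 974.9, and below the c-di-AMP and 2'3'-cGAMP points.

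LOC5516250 was the only one of the 10 whose call held whichever compared library was left out (largest adjusted p 0.0104 by limma, log2 difference 1.66 to 1.82). LOC5519349 kept its call without 3'3'-cGAMP library 1 or library 2, and lost it without untreated library 1 or 2. Without library 2 of 3'3'-cGAMP, 2 genes were called higher and 1 lower, and without library 1, 4 were called higher and 3 lower. When the 4 compared libraries were fitted without the other polyp groups, 0 genes were called and 657 had an unadjusted p below 0.05. With only the 2'3'-cGAMP libraries left out of the fit, 1 gene was called and 983 had an unadjusted p below 0.05. Most of the calls were thus lost without the 2'3'-cGAMP libraries, and LOC5516250 kept its call. No other polyp group was left out on its own, so a part particular to the 2'3'-cGAMP libraries was not tested. In the fit with all groups, 800 genes (4.32%) had an unadjusted p below 0.05, of which 546 were higher and 254 lower.

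With c-di-GMP, limma called 0 genes against untreated polyps (0% of 18511), with a lowest adjusted p of 0.185, although 1877 genes (10.1%) had an unadjusted p below 0.05. Of these, 961 were higher and 916 lower. Both c-di-GMP libraries lay above both untreated ones in 4267 genes (23.1%) and below both in 4286. When the 4 compared libraries were fitted alone, 77 genes were called, 14 higher and 63 lower, so the count of 0 holds for the fit in which all polyp groups share the spread. Leaving out either untreated library gave 3 genes called higher, and leaving out c-di-GMP library 1 gave 3 called lower. A gene of median precision had a 95% interval, without adjustment for many genes, of 0.625 to either side on the log2 scale. Changes larger than that could also go uncalled after adjustment. LOC5518230, with a difference of 1.13 ± 0.16 (SE), was not called (adjusted p = 0.185 by limma). The count of 0 therefore does not exclude changes above 0.625.

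For the 10 genes that rose with 3'3'-cGAMP, the 95% interval of c-di-GMP against untreated included 0 in 7, lay below 0 for LOC5500942 and lay above 0 for LOC5518230 and LOC116602118. LOC5516250 stood at 892 and 972 with c-di-GMP, within the range of the untreated libraries, and its difference from untreated was 0.01 with a 95% interval from -0.26 to 0.28. LOC5516210 stood at 355 and 252 (0.01, interval -0.38 to 0.40) and LOC5517508 at 51.9 and 33.2 (0.09, interval -0.37 to 0.55). These intervals lie wholly below those of 3'3'-cGAMP against untreated, which began at 1.47, 1.28 and 1.35 for the same genes. LOC5518230 was the farthest above untreated, at 485 and 397 with c-di-GMP against 181 and 222 untreated, a difference of 1.13 with an interval from 0.78 to 1.48 and an adjusted p of 0.185 by limma.

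The genes that lay farthest from untreated with c-di-GMP are given as values, since none was called. LOC5500366 stood at 754 and 573 with c-di-GMP and at 18.7 and 153 untreated, and the untreated libraries differed from each other by more than 8-fold. LOC5512226 stood at 94.8 and 151 against 46.7 and 27.4 untreated. Its 3'3'-cGAMP values, 125 and 89.3, lay in the same range as those of c-di-GMP. Among genes without a reference entry, Gene 5499225 stood at 122 and 157 against 18.7 and 26.6, and Gene 5497049 at 395 and 418 against 205.5 and 16.8. On the lower side, Gene 5508206 was listed at 0 in both c-di-GMP libraries against 352 and 188 untreated, and Gene 5501457 at 0 and 4.36 against 194 and 414. Both of these stood at about 300 in 3'3'-cGAMP library 2, at 301 and 300, and far lower in library 1, at 0 and 16.8. In both, library 2 thus lay on the side of the untreated polyps and library 1 on that of c-di-GMP. Gaps this wide were not particular to 3'3'-cGAMP. At least 8-fold, 13 genes were higher in its library 2 and 12 in its library 1. These counts were 7 and 11 untreated, 10 and 10 with c-di-GMP, 8 and 8 with c-di-AMP and 35 and 21 with 2'3'-cGAMP. With c-di-AMP, LOC5500366 stood at 735 and 704, LOC5512226 at 78.9 and 79.9 and Gene 5497049 at 212 and 320, also above untreated. Gene 5508206 stood at 0 and 37.6 and Gene 5501457 at 0 in both c-di-AMP libraries, also below untreated. Gene 5499225, at 25.4 and 129 with c-di-AMP, overlapped the untreated values. Most of these levels were thus not particular to c-di-GMP.

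The genes lower with c-di-GMP at an unadjusted p below 0.01, with a mean of at least 50 and no overlap between the groups, numbered 182, and those higher numbered 227. Their levels were then read with c-di-AMP and 3'3'-cGAMP, whose means did not enter the difference that chose the genes, although their libraries did enter the spread behind its p. The 182 were lower with c-di-AMP than in 3'3'-cGAMP library 2 in 168 cases (92.3%, median log2 difference -0.84), and lower than in library 1 in 136 cases (74.7%, median -0.14). Over all tested genes the shares were 47.3% and 50.8%, and the medians were 0.027 and -0.005. The 227 had medians of 0.24 against library 2 and 0.05 against library 1. In both lists c-di-AMP lay farther from library 2 of 3'3'-cGAMP than from library 1.

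Pooling the 4 libraries of both compounds gave 0 called genes against untreated (0%), with 1329 genes (7.18%) at an unadjusted p below 0.05. The lowest adjusted p, 0.0697 by limma, was shared by LOC5518230 and LOC5516250. LOC5518230 was above both untreated libraries in each of the 4 treated ones, with a log2 difference of 1.14 ± 0.14 (SE). LOC5516250 had 0.87 ± 0.10, the average of 1.74 with 3'3'-cGAMP and 0.01 with c-di-GMP. Without 3'3'-cGAMP library 2, 39 genes were called in the pooled comparison, 11 higher and 28 lower, among them these 2 genes.

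Between the compounds, 13 genes were higher with 3'3'-cGAMP than with c-di-GMP and 1 was lower (0.0756% of the tested genes). LOC5516250 was again the clearest, with a difference of 1.73 ± 0.12 on the log2 scale (adjusted p = 0.0008 by limma). It alone remained called after limma's adjusted p was multiplied by the 5 compound pairs compared (adjusted p = 0.004 by limma), and it stayed called when any compared library was left out (largest adjusted p 0.0286). LOC5500942, at 530 and 607 with 3'3'-cGAMP and 210 and 194 with c-di-GMP, had a difference of 1.49 ± 0.15 (adjusted p = 0.0143 by limma). The untreated values of this gene, 288 and 230, lay between those of the compounds, and its c-di-GMP interval against untreated ran from -0.69 to -0.02.

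The c-di-GMP interval against untreated also lay below 0 for LOC5517267, LOC5522178 and LOC5518711. LOC5517267 stood at 499 and 426 with c-di-GMP, 595 and 560 untreated and 924 and 1000 with 3'3'-cGAMP, and the difference between the compounds was 1.06 ± 0.12 (adjusted p = 0.0147 by limma). LOC5522178 stood at 18.2 and 18.3 with c-di-GMP, 47.6 and 64.6 untreated and 102 and 59.5 with 3'3'-cGAMP, and the difference between the compounds was 2.03 ± 0.26 (adjusted p = 0.0267 by limma). LOC5518711 stood at 44.7 and 61.1 with c-di-GMP, 124 and 92.0 untreated and 151 and 278 with 3'3'-cGAMP, a difference of 1.95 ± 0.27 (adjusted p = 0.0341 by limma). Against untreated, c-di-GMP had estimates of -0.32, -1.55 and -1.02 for these 3 genes, in the order named, and none passed the test (adjusted p 0.414, 0.337 and 0.372 by limma). LOC116618106 (1.74), LOC5506676 (1.15) and LOC116616218 (0.88) were also called higher with 3'3'-cGAMP than with c-di-GMP. The 3'3'-cGAMP values of LOC116618106 were 68.3 and 103 against 22.8 and 26.2.

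The gene called lower, Gene 116618505, was listed at 0 in both 3'3'-cGAMP and both untreated libraries and stood at 17.3 and 69.0 with c-di-GMP (adjusted p = 0.0341 by limma). It stood at 53.5 and 58.7 with c-di-AMP and at 35.8 and 41.7 with 2'3'-cGAMP. No fold is given against groups at 0. The number of genes called between the compounds depended on 3'3'-cGAMP library 1 and on c-di-GMP library 2. It was 97, 81 higher and 16 lower, without the former, 5 without 3'3'-cGAMP library 2, and 1 without c-di-GMP library 2. Of the 14 called genes, 14 kept their call without 3'3'-cGAMP library 1 and 5 without library 2, which were LOC5516250, LOC5519349, LOC116602986, LOC5506676 and LOC5522178. Without c-di-GMP library 1, 6 kept it, and without c-di-GMP library 2 only LOC5516250 did.

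**Figure D3:**
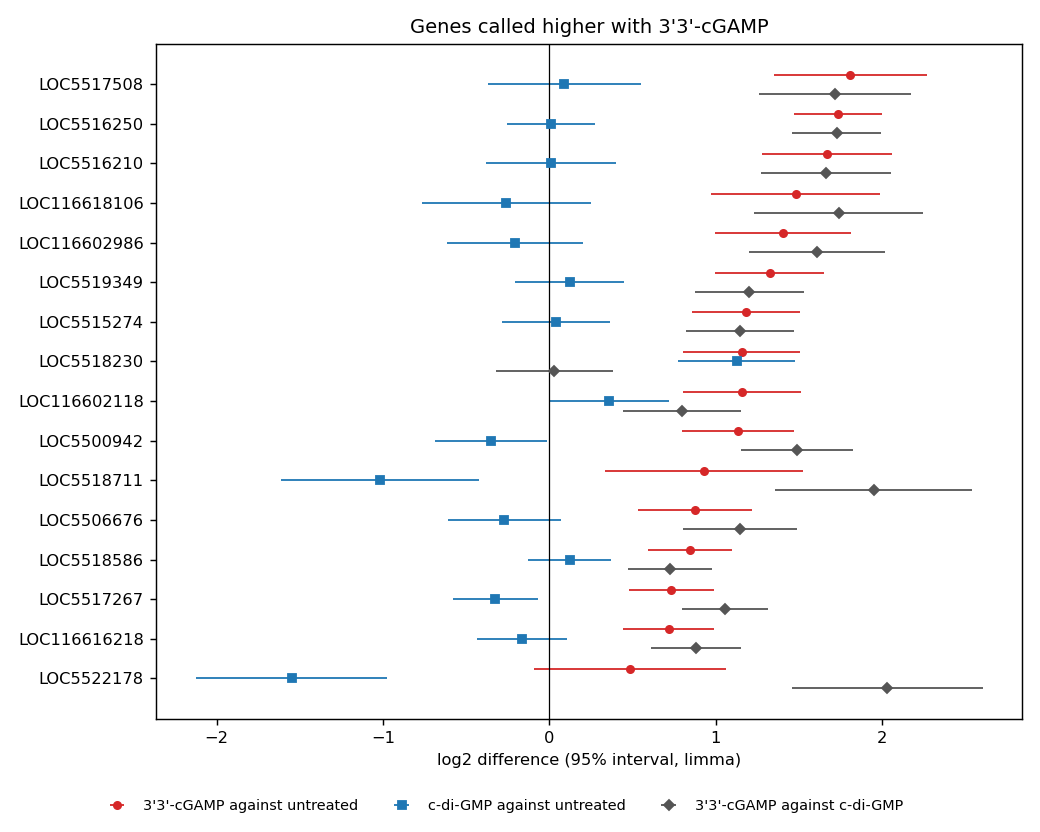
Log2 differences with 95% intervals (limma) of the 16 genes called higher with 3'3'-cGAMP against untreated, against c-di-GMP, or both. For LOC5518230 the points of 3'3'-cGAMP and of c-di-GMP against untreated lie together at 1.16 and 1.13, whereas for LOC5522178 and LOC5518711 the c-di-GMP points lie below 0, at -1.55 and -1.02.

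Counting both lists, 16 genes were called higher with 3'3'-cGAMP. In 15 of the 16 both 3'3'-cGAMP values lay above both untreated values, the exception being LOC5522178, and in 15 above both c-di-GMP values, the exception being LOC5518230. The c-di-GMP values lay above both untreated values in 3 of the 16 and below both in 8, against 23.1% and 23.2% of all tested genes. All 16 were higher in both 2'3'-cGAMP libraries than in either c-di-AMP library. In 11 of the 16 the order ran from 2'3'-cGAMP through c-di-AMP and 3'3'-cGAMP down to untreated and c-di-GMP without overlap between neighbouring groups, where the latter pair is counted as 1 step. The 16 genes were chosen for being high with 3'3'-cGAMP, so the places of 3'3'-cGAMP above untreated or c-di-GMP are a description. The 8 genes with c-di-GMP below untreated were all chosen in part for low values with c-di-GMP, so their count is a description too.

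Against c-di-AMP, which differs from 3'3'-cGAMP in a base, limma called 1 gene with a difference, lower with 3'3'-cGAMP (0.0054% of the tested genes), and 0 after adjustment for the 5 pairs. That gene, Gene 5519757, stood at 391 and 305 with 3'3'-cGAMP, 1007 and 851 with c-di-AMP and 272 and 262 untreated, a difference of -1.42 ± 0.15 (adjusted p = 0.0354 by limma). None of the 16 genes above was called, but the point estimates were below 0 in all 16, from -1.24 to -0.04, and the 95% interval lay wholly below 0 in 10. LOC5516250 stood at 5578 and 4768 with c-di-AMP, an estimate of -0.74 with an interval from -1.01 to -0.47 (adjusted p = 0.122 by limma). LOC116602986 and LOC5518230 had estimates of -0.04 and -0.07, with intervals of -0.45 to 0.37 and -0.42 to 0.28. Without 3'3'-cGAMP library 1 the count of this pair was 249, 175 higher and 74 lower, and without library 2 it was 0.

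Between c-di-GMP and c-di-AMP, which differ in both bases, 1 gene was higher and 130 were lower with c-di-GMP (0.708% of the tested genes), and 74, all lower, remained after adjustment for the 5 pairs. LOC5517508 stood at 51.9 and 33.2 with c-di-GMP and 371 and 292 with c-di-AMP, a difference of -2.96 ± 0.21 (adjusted p = 0.000183 by limma). LOC5516210 differed by -2.50 ± 0.18 (adjusted p = 0.000183 by limma), at 355 and 252 against 1683 and 1700. The gene that was higher, Gene 116616108, stood at 28.3 and 23.6 with c-di-GMP and at 0 in each c-di-AMP library (adjusted p = 0.0223 by limma). It stood at 10.6 and 29.8 with 3'3'-cGAMP and at 1.70 and 0 untreated. The count of this pair ranged from 50 without c-di-GMP library 2 to 123 without c-di-AMP library 2, and was 53 without c-di-AMP library 1.

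Both compounds were far from 2'3'-cGAMP. Against 2'3'-cGAMP, 10746 genes (58.1%) were called with 3'3'-cGAMP, 5459 higher and 5287 lower, and 10365 (56%) with c-di-GMP, 5257 higher and 5108 lower. After adjustment for the 5 pairs the counts were 8289 and 7961. With library totals made equal, the higher calls were 84.6% and 84.5% instead of 50.8% and 50.7%, and the medians of all genes moved to 1.22 and 1.20, so the shares of higher and lower calls depend on the scaling used. LOC5514999 stood at 5915 and 6845 with 2'3'-cGAMP, at 1.12 and 3.72 with 3'3'-cGAMP and at 2.73 and 0.87 with c-di-GMP, near its untreated values of 1.70 and 3.54. Its difference was -10.97 ± 0.59 for 3'3'-cGAMP and -11.23 ± 0.59 for c-di-GMP (adjusted p 1.19e-07 and 9.24e-08 by limma). With values this near 0, the size depends in part on the pseudocount. Over the alternative settings given below it ran from -11.55 to -9.77 for 3'3'-cGAMP and from -11.73 to -9.88 for c-di-GMP. In the other direction, LOC116603002 stood at 97.4 and 103 with 3'3'-cGAMP and 117 and 130 with c-di-GMP, and at 0 and 1.90 with 2'3'-cGAMP.

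The 16 genes were among those that 2'3'-cGAMP libraries held at high levels. These libraries entered the spread behind the calls of the 16, so their levels are a description. LOC5516250 stood at 111377 and 123102 with 2'3'-cGAMP, a difference of -5.25 ± 0.12 for 3'3'-cGAMP against it (adjusted p = 8.26e-10 by limma). LOC116616218 had the largest difference of the 16, -7.88 ± 0.12 (adjusted p = 1.24e-10 by limma), at 132456 and 125371 against 531 and 561. LOC116602118 had the smallest, -3.75 ± 0.16 (adjusted p = 2.24e-08 by limma), at 3531 and 3292 against 266 and 240. Between these compounds, which share both bases and differ in a linkage, the log2 difference therefore ran from -7.88 to -3.75 in these genes.

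The genes that separated c-di-AMP from c-di-GMP gave a look at 3'3'-cGAMP through a difference that uses none of its libraries or of the untreated ones, which entered only the spread behind the calls. Of the 10 genes that rose with 3'3'-cGAMP, 9 (90%) were among the 130 genes higher with c-di-AMP than with c-di-GMP, which is 6.92% of those 130. Of all 18511 tested genes, 0.708% were called in that pair in either direction. The exception was LOC5518230. Of the 130, 127 (97.7%) had a value above 0 for 3'3'-cGAMP against untreated, against 50.7% of all tested genes. Their median log2 difference was 0.51, against a median of 0.004 over all tested genes. Both 3'3'-cGAMP libraries lay above both untreated ones in 105 of the 130 (80.8%), against 17.5% of all tested genes. The median was 0.67 in 3'3'-cGAMP library 1 and 0.44 in library 2, so the difference was present in both. Over all tested genes the 2 differences had a Pearson's r of 0.015 and a Spearman's rho of 0.011, a description over genes that share these libraries.

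In the same way, the 143 genes higher with c-di-AMP than untreated were read in the comparison of 3'3'-cGAMP with c-di-GMP. Of the 13 genes higher with 3'3'-cGAMP, 11 (84.6%, or 7.69% of the 143) were among them, and LOC5522178 and LOC5518711 were not. As a background, the list holds 143 of the 18511 tested genes. The 143 had a median log2 difference of 0.57 in that comparison, against 0.011 over all tested genes. The median was 0.67 with library 1 of 3'3'-cGAMP and 0.48 with library 2. Here 11 of the 143 were called higher and 1 lower, and the groups did not overlap in 110 (76.9%) on the higher side and 5 (3.5%) on the lower side. Over all tested genes 13 were called higher and 1 lower, and the groups did not overlap in 19.1% and 18.6%. Over all tested genes the differences of these pairs had a Pearson's r of -0.207 and a Spearman's rho of -0.249, again a description over genes.

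**Figure D4:**
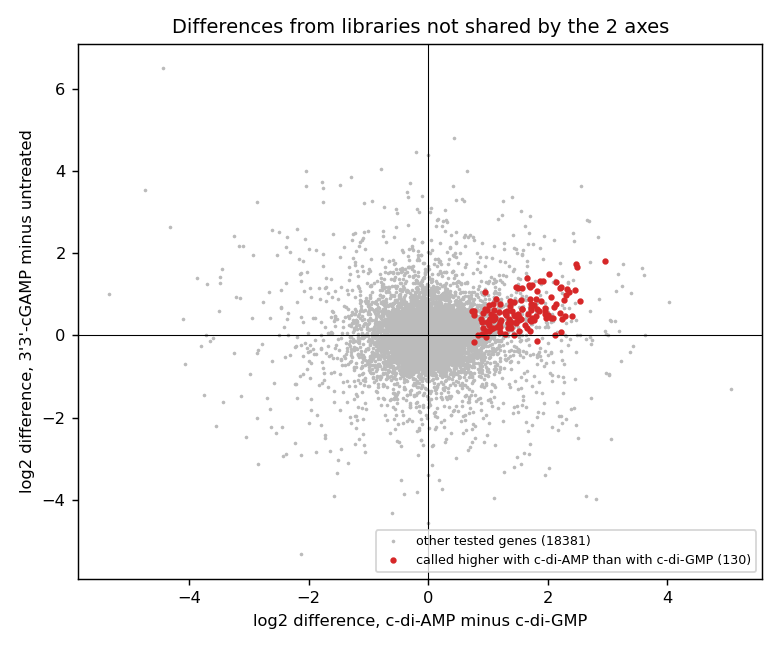
Each point is a tested gene, with the log2 difference of c-di-AMP minus c-di-GMP on the horizontal axis and of 3'3'-cGAMP minus untreated on the vertical axis, taken from different libraries. The 130 genes called higher with c-di-AMP than with c-di-GMP are in red. Of these, 127 lie above 0 on the vertical axis, against 50.7% of all tested genes.

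Embryos given 2'3'-cGAMP gave a further look, in another life stage, another experiment and at another dose and time, so levels are not set against those of polyps. In embryos with the GFP shRNA, 943 genes rose with 2'3'-cGAMP (4.52% of 20879 tested) and 268 fell. With library totals made equal, 729 were called higher and 545 lower, so these counts depend on the scaling used. The median of all embryo genes moved from 0.044 to -0.222. All 16 genes were among the 943, with log2 differences from 2.93 for LOC116602118 to 7.99 for LOC5518230. The 16 had been called in a fit that held the 2'3'-cGAMP polyp libraries, so their choice was not free of 2'3'-cGAMP. With those libraries left out, 1 gene was called for 3'3'-cGAMP against untreated and 3 against c-di-GMP. The part of those libraries in the overlap with embryos was not tested. LOC5518230 went from 23.4 and 69.1 to 7882 and 14021 in embryos (adjusted p = 0.000276 by limma), and LOC5516250 from 3367 and 2922 to 105872 and 187955 (adjusted p = 1.25e-05 by limma). LOC116602118 lost its call without 2'3'-cGAMP embryo library 4 (adjusted p = 0.0665 by limma), and the other 15 kept theirs without any 1 library. The number of genes called in embryos, higher and lower together, was 1211, and it was 727 without untreated library 1, 739 without 2'3'-cGAMP library 4, 2771 without untreated library 2 and 429 with the compared groups alone.

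Genes that rose more in embryos lay higher with 3'3'-cGAMP in polyps. The median log2 difference of 3'3'-cGAMP against untreated was 0.47 for the 138 tested genes that rose by at least 5 in embryos, 0.24 for the 465 that rose by 2 to 5 and 0.04 for the 324 that rose by less than 2. In 3'3'-cGAMP library 1 these medians were 0.62, 0.30 and 0.08, and in library 2 they were 0.46, 0.18 and 0.02. With c-di-GMP the medians were 0.07, -0.03 and -0.01, next to -0.001 over all tested genes. The same 138 genes had both c-di-GMP libraries above both untreated ones in 25.4%, close to the 23.1% of all tested genes, whereas with 3'3'-cGAMP the share was 48.6% against 17.5%. Between the compounds the medians were 0.27, 0.28 and 0.04 in favour of 3'3'-cGAMP. Of the 927 genes that rose in embryos and were tested in polyps, 10 were called higher with 3'3'-cGAMP against untreated and 0 with c-di-GMP, next to 0.054% and 0% of all tested genes.

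**Figure D5:**
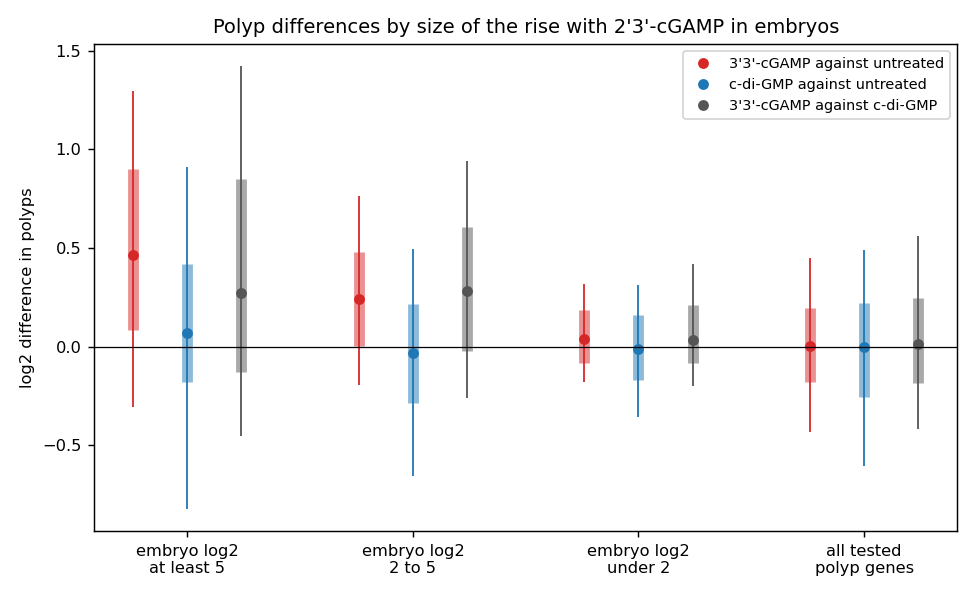
Log2 differences in polyps for genes grouped by the size of their rise with 2'3'-cGAMP in embryos; dots are medians, thick bars run from the 25th to the 75th percentile and thin lines from the 10th to the 90th. The median for 3'3'-cGAMP against untreated goes from 0.47 in the class with the largest embryo rise to 0.04 in the smallest, and that for c-di-GMP lies between -0.03 and 0.07.

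By gene order in the reference assembly jaNemVect1.1, the called genes nearest each other were LOC5516250 and LOC5516210. Both lie on chromosome 8 with 1 gene between them, and LOC5519349 and LOC5515274 lie on the same chromosome with 90 genes between them. On chromosome 11, LOC5517508 and LOC5500942 are separated by 24 genes, and on chromosome 13, LOC5518586 and LOC116602118 by 25. Other called genes that follow each other on a chromosome have from 152 to 1343 genes between them. Whether the called genes lie closer than other genes was not tested. The sharing of reads between near-identical copies could not be examined without transcript sequences.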

How the data were processed

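Transcript abundance was measured by mRNA sequencing of whole polyps and whole embryos. The authors deposited signal values per gene, called normalised counts in the labels, and per the submitters' processing notes FastQC 0.11.9, kallisto 0.46.1 and DESeq2 were used, with no role or order given. The genome build is not given in the sources used here. Between 82.1 and 83.5% of positive polyp values below 2000 reads were whole multiples of the value of 1 read (tolerance 0.0001), so reads were not recovered for all genes and no test for raw counts was run. Deposited totals were 9.56 to 10.55 M (mega), and 22.34 and 22.36 M with 2'3'-cGAMP.

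Genes with at least 10 in at least 2 libraries were tested, 18511 of 21260 in polyps and 20879 of 22407 in embryos. A pseudocount of 1 was added before taking log2. The model was fitted in limma 3.58.1 (R 4.3.3) with a mean per group, all groups of a table together (10 polyp libraries, 12 embryo libraries), and variances were moderated with a trend on expression. Tests were two-sided, and for the 5 compound pairs the adjusted p was also multiplied by 5. The code was tested on simulated data. Identifiers matched the reference for 76.4% of polyp genes.

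Named genes were all those called against untreated or between the compounds, up to 15 per direction, and for c-di-GMP the 6 per direction with the largest difference at an unadjusted p below 0.01, a mean of at least 50 and no overlap. For the other pairs the 3 largest per direction were taken. At most 2 genes without a reference entry are named per direction and comparison, and Gene 116616108 was chosen after its values were seen. The libraries, gene lists and comparisons were chosen with earlier results of these data known.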

Additional observations from a re-analysis of the deposited data

How the results depend on the processing

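Alternatives were the pseudocount (0.5 and 5), no filter, a mean of at least 50, scaling by factors of the TMM type or by equal totals, the compared groups alone, the replicate block, no 2'3'-cGAMP libraries, p times the 5 pairs, and each compared library left out. For single named genes, 972 values kept their state as called or uncalled, 148 lost the call and 13 gained it. Of values called in either fit, 0 changed direction, and changes of direction among uncalled values were not counted. Counts that moved by over 1.5 times were as follows, and the cause was not tested. With TMM-type factors, 3'3'-cGAMP against untreated gave 5 genes. With the compared groups alone the counts were 0 for 3'3'-cGAMP against untreated, 77 for c-di-GMP against untreated, 1 for 3'3'-cGAMP against c-di-GMP, 0 for 3'3'-cGAMP against c-di-AMP and 429 in embryos. Without the 2'3'-cGAMP libraries they were 1, 3 and 0 for 3'3'-cGAMP against untreated, c-di-GMP and c-di-AMP. Both compounds pooled against untreated gave 2 with a pseudocount of 5 and 2 with a mean of at least 50. 3'3'-cGAMP against c-di-AMP gave 2 with no filter and 3 with equal totals. With p times the pairs, 3'3'-cGAMP against c-di-GMP gave 1, 3'3'-cGAMP against c-di-AMP 0 and c-di-GMP against c-di-AMP 74.

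The replicate block gave 8 for 3'3'-cGAMP against c-di-GMP, 11 for 3'3'-cGAMP against c-di-AMP and 8 for 3'3'-cGAMP against untreated. Deviations of same-numbered libraries correlated from -0.099 to 0.068, so the numbers were not taken to pair the samples. No paired analysis was possible in embryos because the compared groups share no replicate number.

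With each library left out the counts ranged from 3 to 7 for 3'3'-cGAMP against untreated, 0 to 3 for c-di-GMP against untreated, 0 to 39 for both pooled, 1 to 97 for 3'3'-cGAMP against c-di-GMP, 0 to 249 for 3'3'-cGAMP against c-di-AMP, 50 to 123 for c-di-GMP against c-di-AMP and 727 to 2771 in embryos. A lone remaining library is assumed to vary like the other groups. Counts against 2'3'-cGAMP stayed within 1.5 times under these alternatives. The depth and 2 libraries per group limit what can be detected: the median 95% interval is 0.625 to either side (log2) before adjustment for many genes, and a call needs more.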
